A study of Mus musculus with 14 samples.

Results

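The mouse fibrinogen gene cluster was followed through its poly(A) sites, where transcripts are cut and receive a poly(A) tail. Every site on either strand of chromosome 3 between 82805000 and 82860000 (mm9) was taken, which gave 72 of the 159969 sites found over 14 libraries. The interval holds Fgg and then Fga on the + strand, and Fgb on the - strand. The interval was selected on the tags of its sites, which were known to be abundant in liver, so the levels in liver against the other tissues are given as a description with no test. The libraries were made by 3P-seq, a sequencing method that maps and counts the 3′ ends of polyadenylated transcripts. Tags come from transcript ends and not from along the transcript, so tag levels need no correction for transcript length when genes are set side by side.

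The libraries came from liver, kidney, white adipose tissue, lung, heart and muscle of miR-22 knockout mice and of wild-type mice, with 1 library for each tissue and genotype. miR-22 itself was not measured here, so the genotype labels have no check of their own. mESC (mouse embryonic stem cells) and 3T3, an established mouse fibroblast line, gave 1 library each, with no knockout partner. The labels give the strain 129S5/SvEvBrd for all of them, and the knockout allele is named miR-22D in the protocol. Neither the ages of the mice, nor how many animals gave a tissue, nor any promoter or cell type restricting the deletion is given in the sources used here. The submitters state that there were no biological replicates, so all p-values below measure only the spread between libraries and tissues. Library totals ran between 2036838 tags (knockout adipose tissue) and 6010465 tags (knockout lung).

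Fibrinogen is the soluble plasma protein that thrombin turns into fibrin, the mesh of a blood clot. It is built from alpha, beta and gamma chains, encoded by Fga, Fgb and Fgg, and all of the chains are needed to assemble and secrete it. Hepatocytes are the main source of plasma fibrinogen, and the genes lie next to each other and are induced together in the acute phase response, mainly through interleukin-6. Alternative 3′ ends are known at the locus: a longer Fga transcript with a further exon encodes the extended alpha-E chain, and in humans a polyadenylation site within an intron of FGG gives the gamma prime chain. miR-22, the microRNA deleted in the knockout mice, lowers target mRNAs that carry matches to its seed.

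The promoter windows of the 3 genes are shown because the genes shared 1 pattern of levels over the libraries, described below. They are taken from RefSeq on GRCm38.p6 and run from 250 bases before to 50 bases after the transcription start. The windows are chr3:83025903-83026202 (+) for Fga, chr3:83049814-83050113 (-) for Fgb and chr3:83007474-83007773 (+) for Fgg. Capitals mark matches, on either strand, to GTTAAT (core of the motif of the liver factor HNF1), TTGCNNAA (core of the C/EBP motif) and CTGGGA (the type II element of acute phase promoters). The seeds of both miR-22 arms, bases 2 to 8, are in capitals in the mature sequences (RefSeq). The fibrinogen transcripts were not searched for matches to these seeds.
Fga promoter: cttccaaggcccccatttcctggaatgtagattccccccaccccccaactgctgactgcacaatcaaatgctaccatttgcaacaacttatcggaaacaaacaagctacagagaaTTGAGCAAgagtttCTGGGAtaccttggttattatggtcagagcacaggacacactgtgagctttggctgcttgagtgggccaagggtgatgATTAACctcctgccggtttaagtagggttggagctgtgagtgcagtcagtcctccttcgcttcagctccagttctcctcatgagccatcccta
Fgb promoter: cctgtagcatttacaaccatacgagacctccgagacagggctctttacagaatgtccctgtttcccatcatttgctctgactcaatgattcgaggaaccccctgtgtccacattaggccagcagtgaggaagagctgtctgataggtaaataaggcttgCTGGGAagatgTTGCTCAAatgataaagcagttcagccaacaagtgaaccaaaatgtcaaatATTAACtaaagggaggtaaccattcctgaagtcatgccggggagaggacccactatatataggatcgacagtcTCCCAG
Fgg promoter: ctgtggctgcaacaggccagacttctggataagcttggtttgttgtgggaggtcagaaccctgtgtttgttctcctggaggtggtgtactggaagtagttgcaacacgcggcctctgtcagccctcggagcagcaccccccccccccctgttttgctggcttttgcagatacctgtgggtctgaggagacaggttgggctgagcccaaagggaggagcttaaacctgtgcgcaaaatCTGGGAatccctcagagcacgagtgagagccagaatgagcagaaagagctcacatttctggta
mmu-miR-22-3p: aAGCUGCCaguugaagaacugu
mmu-miR-22-5p: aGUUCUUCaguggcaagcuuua

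The HNF1 core occurred once in the Fga window, starting 43 bases before the transcription start, and once in the Fgb window, starting 29 bases before it, and was not in the Fgg window. The C/EBP core likewise occurred once in Fga, at 135 bases before the start, and once in Fgb, at 80 bases before it, and was not in the Fgg window. The type II element was in the windows of all 3 genes, at 121 bases before the start in Fga, at 91 bases before it in Fgb and at 13 bases before it in Fgg, with a second match in Fgb 45 bases after the start. None of these matches overlapped another. Of 32817 RefSeq promoter windows of the same length, 7.1% held the HNF1 core, 10.8% the C/EBP core and 31.8% the type II element. The TATA box, searched as TATAAA, was in none of the 3 windows and in 13.6% of all windows. A match describes these letters in this window and is not evidence of binding.

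The gene labels were checked against RefSeq by distance, since no annotation of mm9 was used. The main 3′ end of Fgg was at 82818968 (site 82818769 to 82818985), that of Fga at 82836184 (site 82836069 to 82836219) and that of Fgb at 82846168 (site 82846151 to 82846523). The Fgg end and the farthest Fga end were 18567 nt apart, against 18571 nt between the ends of the RefSeq genes, a difference of 4 nt. That Fga end and the main Fgb end were 8633 nt apart, against 8619 nt in RefSeq, a difference of 14 nt. The farthest Fga end is a minor one, described below. The main Fga end was off the RefSeq distance by 1355 nt to Fgg and by 1365 nt to Fgb. RefSeq lists 2 transcripts of Fga, 2 of Fgg and 1 of Fgb. Marker genes of the tissues were not looked up, because the gene table used here belongs to GRCm38.p6 and not to mm9.

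All 3 chains were among the most abundant transcripts of liver. The cluster held 2.6% of all tags of the knockout liver library and 2.72% of those of the wild-type liver library. Fgb, the beta chain, had 34998.2 tags or 11172 CPM in knockout liver (95% exact Poisson interval 11055 to 11289) and 43215.3 tags or 11845 CPM in wild-type liver (11733 to 11957). CPM here are tags scaled by TMM to a common library size. Fga, the alpha chain, had 31808.7 tags or 10154 CPM in knockout liver (10043 to 10266) and 41529 tags or 11383 CPM in wild-type liver (11273 to 11493). Fgg, the gamma chain, had 19635.2 tags or 6268 CPM in knockout liver (6180 to 6356) and 28473.4 tags or 7804 CPM in wild-type liver (7714 to 7895). The intervals cover counting error only, since no molecular identifiers were reported and tags may share a source molecule. Over both liver libraries the means were 11508 ± 476 CPM for Fgb, 10768 ± 869 CPM for Fga and 7036 ± 1090 CPM for Fgg (SD, n = 2). Fgg thus lay below the other chains by more than this spread. The means of Fga and Fgb differed by less than the SD of Fga but by more than that of Fgb. In each liver library Fga lay below Fgb, with counting intervals that did not overlap. The main Fgb site was the site of rank 10 by tags in knockout liver and of rank 9 in wild-type liver. In knockout and wild-type liver the main Fga site had ranks 13 and 10, and the main Fgg site ranks 29 and 24, among 58620 sites of knockout liver and 62147 sites of wild-type liver.

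**Figure D1:**
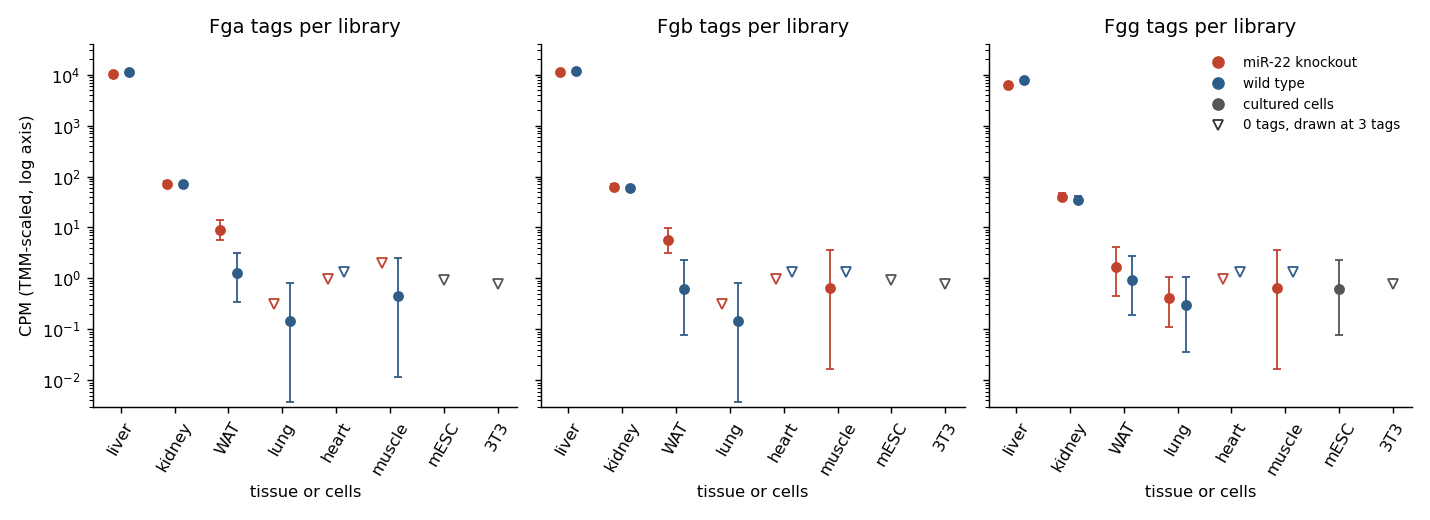
Level of each fibrinogen chain in the 14 libraries, in CPM on a log axis, with 95% exact Poisson intervals; open triangles mark libraries with 0 tags, drawn at the floor of 3 tags. The liver points of Fga, Fgb and Fgg lie between 6268 and 11845 CPM, the kidney points between 34.9 and 72.1 CPM, and those of the other libraries at or below 9.06 CPM.

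Kidney held a small but well measured amount of all 3 chains. Fga had 72.1 CPM (63.7 to 81.2) in knockout kidney and 69.8 CPM (62.0 to 78.2) in wild-type kidney. Fgb had 62.7 CPM (54.8 to 71.2) in knockout kidney and 58.5 CPM (51.6 to 66.4) in wild-type kidney. Fgg had 40.2 CPM (34.0 to 47.2) in knockout kidney and 34.9 CPM (29.6 to 41.1) in wild-type kidney. With TMM scaling each chain had overlapping intervals in the 2 kidney libraries, and all 6 values lay above those of every library outside liver and kidney. The mean liver level was 152 times the mean kidney level for Fga, 190 times for Fgb and 187 times for Fgg. The main Fga site had rank 1482 in knockout kidney and 1686 in wild-type kidney, where it was again ahead of the main Fgg site at ranks 3058 and 3451.

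White adipose tissue had fewer tags, and most of them were in the knockout library. Fga had 22 tags (9.06 CPM) in knockout adipose tissue and 4 tags (1.25 CPM) in wild-type adipose tissue. Fgb had 14 tags (5.76 CPM) in the knockout library and 2 tags (0.627 CPM) in the wild-type library. Fgg had 4 tags (1.65 CPM) and 3 tags (0.94 CPM) in the same libraries, a pair of values that counting error does not separate. Lung had 4 Fgg tags in the knockout library and 2 in the wild-type library, and 1 tag each of Fga and Fgb in the wild-type library only. Muscle had 1 tag each of Fgb and Fgg in the knockout library and 1 tag of Fga in the wild-type library. mESC had 2 Fgg tags, both at an end 330 nt upstream of the main end.

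Neither heart library nor the 3T3 library held a tag of any chain. Against the floor of 3 tags per library that a count of 0 allows, the lower of the liver libraries was at least 10300-fold higher than knockout heart and at least 7470-fold higher than wild-type heart for Fga. The same bounds were 11300-fold and 8220-fold for Fgb, and 6330-fold and 4610-fold for Fgg. Against 3T3 they were 13000-fold for Fga, 14300-fold for Fgb and 8050-fold for Fgg. In these bulk samples fewer cells that make a transcript and less of the transcript per cell cannot be told apart.

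To see how other liver transcripts stood in the same libraries, 61 sites outside the cluster were listed that had at least 1000 CPM in both liver libraries and at least 50 times the median of the other 10 tissue libraries. The list was drawn from the values and gets no test. In knockout kidney Fga was at 0.67%, Fgb at 0.545% and Fgg at 0.571% of their mean liver level, and the median list site was at 0.727% of its own (quartiles 0.56 to 1.48). In wild-type kidney Fga was at 0.648%, Fgb at 0.509% and Fgg at 0.496%, and the median list site was at 0.6% (quartiles 0.476 to 1.04). The lowest list site was at 0.25% in knockout kidney and 0.245% in wild-type kidney, so each of the 61 liver sites was also seen in kidney. In knockout adipose tissue the median list site was at 0.104% of its liver level, with Fga at 0.0841%, Fgb at 0.0501% and Fgg at 0.0234%. In wild-type adipose tissue it was at 0.021%, with Fga at 0.0116%, Fgb at 0.00544% and Fgg at 0.0134%. The fibrinogen chains were within the span of the list in kidney and adipose tissue of both genotypes. The part of RNA or cells from another tissue in these low levels was not tested.

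**Figure D2:**
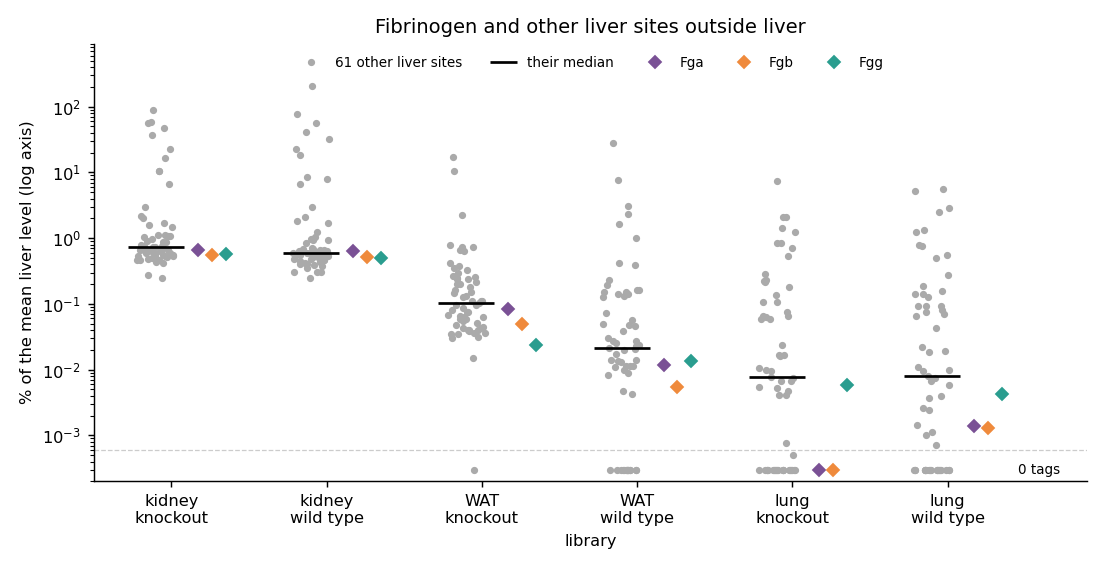
Level in the kidney, adipose tissue and lung libraries as a percent of the mean liver level, on a log axis. Grey points are the 61 liver sites outside the cluster, with a bar at their median, and diamonds are the 3 fibrinogen chains. Points in the bottom row had 0 tags. In knockout kidney the chains lie between 0.545% and 0.67% and the median of the list at 0.727%; in wild-type kidney they lie between 0.496% and 0.648% and the median at 0.6%.

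The share of the chains among their summed tags was close to even for Fga and Fgb and lower for Fgg. In knockout liver 40.5% of the tags were Fgb (95% exact binomial interval 40.2 to 40.8), 36.8% Fga (36.5 to 37.1) and 22.7% Fgg (22.4 to 23.0). In wild-type liver 38.2% were Fgb (37.9 to 38.5), 36.7% Fga (36.4 to 37.0) and 25.1% Fgg (24.9 to 25.4). The Fga share thus had overlapping intervals in the liver libraries, while those of Fgb and Fgg did not overlap. These intervals cover counting error only, and no test by genotype within liver was run. In knockout kidney the shares were 35.7% Fgb (32.1 to 39.6), 41.1% Fga (37.3 to 45.0) and 23.0% Fgg (19.8 to 26.4). In wild-type kidney they were 35.9% Fgb (32.4 to 39.6), 42.8% Fga (39.0 to 46.5) and 21.4% Fgg (18.4 to 24.7). Fga was the largest share in both kidney libraries and Fgb in both liver libraries, and the Fga interval of each kidney library lay above that of each liver library. Knockout adipose tissue, with 40 tags in all, had 35% Fgb (20.6 to 51.7), 55% Fga (38.5 to 70.7) and 10% Fgg (2.79 to 23.7).

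Ratios of chains do not depend on library scaling. There were 0.909 Fga tags for each Fgb tag in knockout liver (0.895 to 0.923) and 0.961 in wild-type liver (0.948 to 0.974). In kidney the ratio was 1.15 in the knockout library (0.958 to 1.37) and 1.19 in the wild-type library (1.01 to 1.42). There were 0.561 Fgg tags for each Fgb tag in knockout liver (0.551 to 0.571) and 0.659 in wild-type liver (0.649 to 0.669). In kidney that ratio was 0.641 in the knockout library (0.517 to 0.789) and 0.596 in the wild-type library (0.485 to 0.738), so that its order between genotypes was opposite to the order in liver, within overlapping intervals. Across the 14 libraries the log2 levels of the chains followed each other, with a Pearson r of 0.996 for Fga and Fgb, 0.986 for Fga and Fgg and 0.993 for Fgb and Fgg. These correlations rest on the distance between liver, kidney and libraries near 0, and the chains of a library share its depth.

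**Figure D3:**
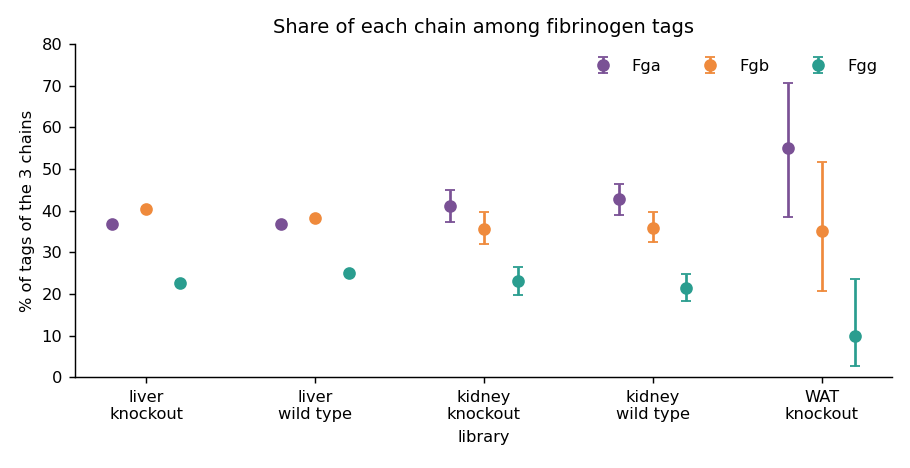
Share of Fga, Fgb and Fgg among the summed tags of the 3 chains, in percent, in the libraries with at least 20 tags of the 3 chains together, with 95% exact binomial intervals. Fgg is the smallest share in all of them, at 22.7% and 25.1% in knockout and wild-type liver and at 23.0% and 21.4% in knockout and wild-type kidney.

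The chains differed in where their transcripts ended. Fgg used several separate sites within 600 nt, while over 97% of the liver tags of Fga and of Fgb were at 1 merged site, which for Fgb was 373 nt wide and held more than 1 end. Sites outside the main one held 21.8% of the Fgg tags in knockout liver (21.2 to 22.3) and 19.6% in wild-type liver (19.2 to 20.1). In kidney they held 26.2% in the knockout library (19.3 to 34.0) and 19.6% in the wild-type library (13.5 to 26.9). The corresponding share of Fga was 0.905% in knockout liver (0.804 to 1.02) and 0.816% in wild-type liver (0.732 to 0.908). That of Fgb was 0.631% in knockout liver (0.551 to 0.72) and 0.643% in wild-type liver (0.57 to 0.723). The Fgb value leaves out a distal site more than 2 kb downstream on its strand, described below. With that site counted, the main Fgb site held 98.1% in knockout liver (97.9 to 98.2) and 97.4% in wild-type liver (97.3 to 97.6). Each Fgg interval lay above all those of Fga and Fgb in liver.

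The shorter Fgg ends lay 242, 330, 418 and 529 nt upstream of the main end. The end at 330 nt upstream, at 82818638, was the most used of them. It had 2550 tags or 13% of Fgg in knockout liver (12.5 to 13.5) and 2962 tags or 10.4% in wild-type liver (10.1 to 10.8). In kidney it had 22 tags or 14.8% in the knockout library (9.49 to 21.5) and 17 tags or 11.5% in the wild-type library (6.84 to 17.8). The intervals of the liver libraries did not overlap and those of the kidney libraries did. They cover counting error only, and the shares of ends were not tested by genotype. The end 529 nt upstream held 3.73% in knockout liver and 3.87% in wild-type liver, the end 418 nt upstream 1.47% in knockout and 2.03% in wild type, and the end 242 nt upstream 3.11% in knockout and 2.94% in wild type. All 4 ends had tags in both liver and both kidney libraries. The main Fgg end itself held 78.2% in knockout liver (77.7 to 78.8) and 80.4% in wild-type liver (79.9 to 80.8).

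**Figure D4:**
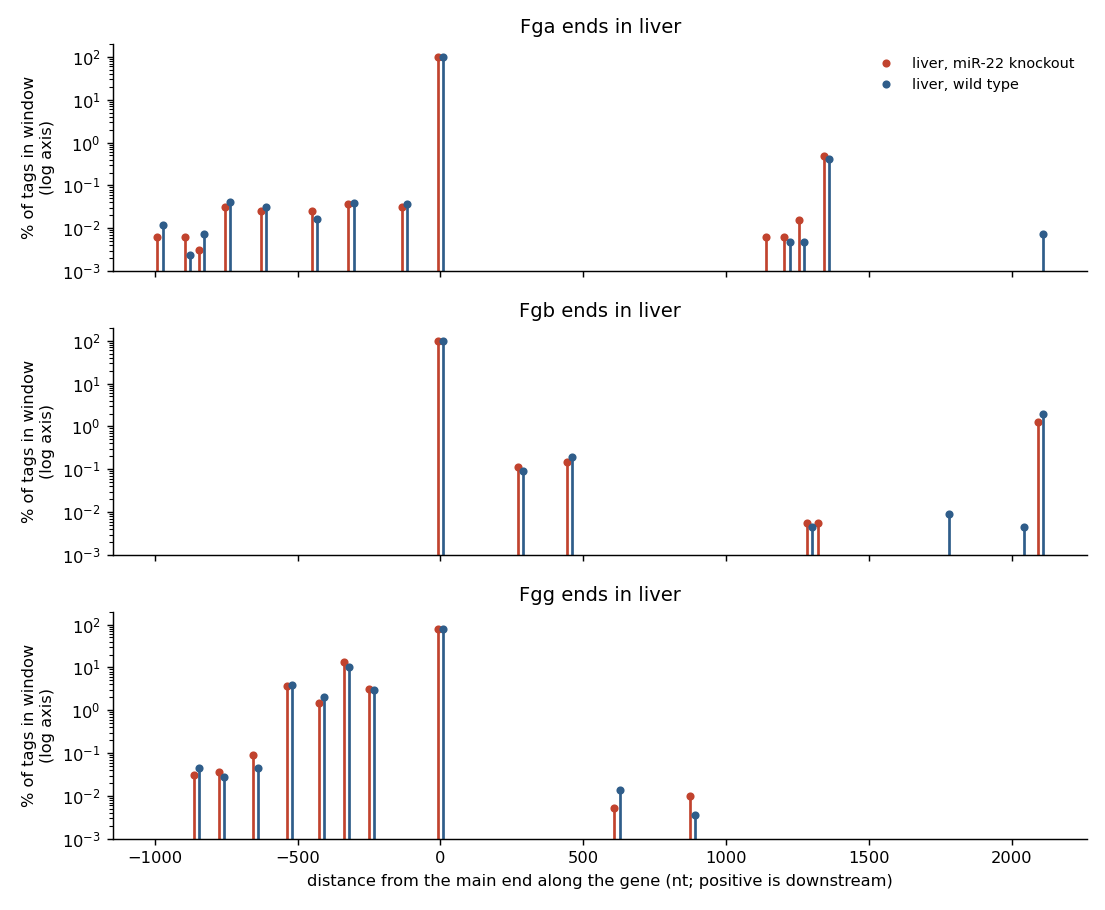
Percent of the tags in the plotted window at each site, on a log axis, against its distance from the main 3′ end (nt, negative values upstream on the gene's strand), from 1000 nt upstream to 2300 nt downstream, for Fga, Fgb and Fgg in the liver libraries; knockout and wild-type stems are drawn slightly to either side of their position. Fgg shows 4 further ends between 242 and 529 nt upstream, the highest at 13% in knockout and 10.4% in wild type. The further merged sites in the Fga and Fgb windows each hold under 2%.

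Fga had a minor end beyond the main one. The strand of Fgb carried a minor site beyond the main Fgb end, outside the 2 kb limit and so not assigned to a chain. The distal Fga end was 1351 nt downstream, at 82837535, the end whose distance to Fgg matched that of the RefSeq genes. It had 152 tags or 0.478% of Fga in knockout liver (0.405 to 0.56) and 174 tags or 0.419% in wild-type liver (0.359 to 0.486), with overlapping intervals. Kidney had 3 tags there in the knockout library and 1 in the wild-type library. The main Fga end, which held 99.1% of Fga tags in knockout liver and 99.2% in wild-type liver, lay 1355 nt off the RefSeq distance. The distal site on the strand of Fgb was 2100 nt downstream of the main end, at 82844068. It had 455.6 tags in knockout liver, or 1.29% (1.17 to 1.41) of the tags up to 3 kb downstream of the main end. In wild-type liver it had 850 tags or 1.93% (1.80 to 2.06), and the intervals, which cover counting error only, did not overlap. It had 3 tags in knockout kidney and 6 in wild-type kidney. Fga and Fgb face each other tail to tail, and their main ends were 9984 nt apart. The distal Fga end and the distal site on the Fgb strand were 6533 nt apart.

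Grouping the 3′ ends within 10 nt, a choice made after seeing the data, split the main sites further. An Fga end 19 nt upstream of the main one held 1.99% of Fga in knockout liver (1.84 to 2.15) and 2.14% in wild-type liver (2 to 2.28). In kidney it held 3.0% in the knockout library (8 tags, 1.30 to 5.82) and 10.5% in the wild-type library (31 tags, 7.25 to 14.6). The wild-type kidney interval, which covers counting error only, lay above the 3 others. An Fgb end 55 nt upstream held 6.12% in knockout liver (5.87 to 6.38) and 7.11% in wild-type liver (6.87 to 7.36), against 7.2% in knockout kidney (4.25 to 11.3) and 10.2% in wild-type kidney (6.80 to 14.6). With this grouping the share of Fgb outside its main end was 7.11% in knockout liver (6.84 to 7.38) and 8.36% in wild-type liver (8.1 to 8.62), and 10.8% in knockout kidney (7.1 to 15.5) and 12.9% in wild-type kidney (9 to 17.7). That of Fga was 5.99% in knockout kidney (3.46 to 9.55) and 12.2% in wild-type kidney (8.7 to 16.5). That of Fgg was 27.5% in knockout kidney (20.5 to 35.4) and 20.3% in wild-type kidney (14.1 to 27.7), so in wild-type kidney the intervals of the chains overlapped. Fgg was hardly split, and its main end still held 78.0% in knockout liver and 80.1% in wild-type liver.

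The remaining sites were sparse and lay mostly within the windows set around the main ends. Of the 72 sites, 27 belonged to Fga, 16 to Fgb and 18 to Fgg, counting sites from 10 kb upstream to 2 kb downstream of a main end. The other 11 were unassigned, among them the distal site on the Fgb strand, which held nearly all of their 482 tags in knockout liver and 878 in wild-type liver. The 3 main sites held 93.8% of the 202442 tags of the cluster, and 99.3% of those tags came from liver. There were 35 sites with at least 10 tags in all, and the 37 below that held 151 tags together. Tags in a liver library were present at 71 sites and tags in both liver libraries at 58, and 45 sites had tags in liver only. Kidney tags were found at 27 sites. Tags in a library other than liver and kidney were found at 6 sites, which were the 3 main sites, the Fgg ends 330 and 242 nt upstream and an Fgb end 453 nt downstream. The 19 Fga sites over 600 nt upstream of the main end held 0.305% of Fga in knockout liver (0.247 to 0.372) and 0.296% in wild-type liver (0.246 to 0.353). The 10 such Fgb sites held 0.354% of Fgb in knockout liver (0.295 to 0.422) and 0.34% in wild-type liver (0.287 to 0.4). The 11 such Fgg sites held 0.438% of Fgg in knockout liver (0.35 to 0.541) and 0.365% in wild-type liver (0.299 to 0.442). Each pair of intervals overlapped.

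No fibrinogen site passed the test for a difference between miR-22 knockout and wild type. The test asked for a difference shared by the 6 tissues, in an edgeR quasi-likelihood fit to all sites with terms for tissue and genotype. Of 23856 sites tested, 82 were called at an adjusted p under 0.05, which is 0.344%; 66 were higher in knockout (0.277%) and 16 lower (0.0671%). The filter on low counts kept 22 of the 72 cluster sites, and 0 of the 22 were called. No cluster site reached an unadjusted p under 0.05 in edgeR, and DESeq2 also called 0. A count of 0 in 22 is close to that background and is not a result about the cluster. Most of these sites were kept through their liver tags, since without the liver pair only 4 cluster sites were tested. The fitted log2 differences, knockout minus wild type, ran between -0.83 and 0.63 with a median of -0.05, against -0.0232 over all tested sites. Both extremes were Fgg sites with tags in liver only, so they set a single liver library against the other. The differences were above 0 at 10 sites and below 0 at 12, which is no count of effects shared by the 6 tissues. The lowest edgeR adjusted p was 0.911, at the distal site on the Fgb strand (log2 -0.68, SE 0.555).

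At the main sites the fitted log2 difference was 0.36 for Fga (SE 0.41, edgeR adjusted p = 0.954), 0.44 for Fgb (SE 0.411, adjusted p = 0.931) and 0.11 for Fgg (SE 0.39, adjusted p = 0.994). DESeq2 gave 0.02 for Fga (SE 0.967), 0.48 for Fgb (SE 0.471) and 0.13 for Fgg (SE 0.451). These edgeR values rested on the adipose pair: without it they were -0.18 for Fga, 0.0 for Fgb and 0.0 for Fgg. Sums over the sites of each chain were also compared by exact two-sided sign-flip tests over the 6 tissues, with 0.5 tags added, where the smallest possible p is 0.0312. The mean log2 difference was -0.17 ± 1.61 for Fga (SD, n = 6, exact p = 0.812, 0.875 after Benjamini-Hochberg adjustment over 5 measures), lower in knockout in 4 of 6 tissues. It was 0.42 ± 1.82 for Fgb (exact p = 0.594, adjusted 0.875), higher in 3 of 6, and 0.44 ± 0.933 for Fgg (exact p = 0.344, adjusted 0.859), higher in 4 of 6. The log2 ratio of Fga to Fgb differed by -0.59 ± 1.27 (exact p = 0.125, adjusted 0.625), lower in 4 tissues and at 0 in lung and heart. The log2 ratio of Fgg to Fgb differed by 0.02 ± 1.46 (exact p = 0.875, adjusted 0.875), higher in 2 tissues and lower in 2. With 2 tissues at 0 the ratios cannot reach an exact p below 0.125. In lung, heart and muscle these differences come from 0 to 4 tags a library and from the added 0.5 tags. Heart had 0 tags in both libraries but counts as lower in knockout for each chain level, at -0.46. That value comes only from the added 0.5 tags and the library sizes.

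The ratio of knockout to wild type inside each tissue sets a single library against another, so it carries counting error only and has no replicate check. In liver the ratio of knockout to wild-type CPM was 0.892 for Fga (0.879 to 0.905), 0.943 for Fgb (0.930 to 0.957) and 0.803 for Fgg (0.789 to 0.818). Scaling by total tags gave 0.961 for Fga (0.947 to 0.976), 1.02 for Fgb (1 to 1.03) and 0.866 for Fgg (0.85 to 0.881), so the direction for Fgb turned with the scaling and those for Fga and Fgg did not. In kidney the ratios were 1.03 for Fga (0.872 to 1.22), 1.07 for Fgb (0.888 to 1.28) and 1.15 for Fgg (0.909 to 1.45), and every interval held 1 with TMM scaling. With total tags the kidney ratios were 1.2 for Fga (1.01 to 1.42), 1.25 for Fgb (1.03 to 1.49) and 1.34 for Fgg (1.06 to 1.69), all above 1, so that reading depends on the scaling. In adipose tissue they were 7.23 for Fga (2.45 to 28.9), 9.2 for Fgb (2.11 to 83.4) and 1.75 for Fgg (0.296 to 12). In the same adipose libraries 50 of the 61 liver sites outside the cluster were higher in knockout, with a median log2 difference of 1.88. The list's median was 0.22 in kidney, with 43 of 61 higher in knockout, -0.51 in lung with 20, -0.46 in heart with 13 and 0.53 in muscle with 51. In heart and muscle the median list site was at 0.0% of its liver level in both libraries. At a site with 0 tags in both libraries the difference comes only from the added 0.5 tags and the library sizes. The lung, heart and muscle values include such sites and are not read as shifts of the list. The part of whatever moved the list in adipose tissue in the fibrinogen values there was not tested.

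**Figure D5:**
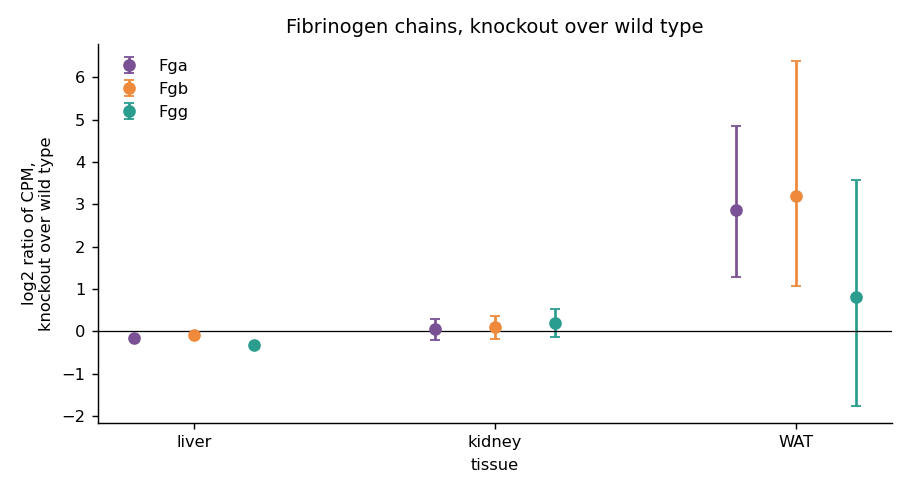
Log2 ratio of knockout to wild-type level of each fibrinogen chain within a tissue, with 95% exact binomial intervals that cover counting error only. In liver the ratios of CPM are 0.892 for Fga, 0.943 for Fgb and 0.803 for Fgg; in kidney every interval holds 0 on the log2 scale with this TMM scaling, but not with total tags, where the ratios are 1.2, 1.25 and 1.34; in adipose tissue those of Fga and Fgb lie above 0 and that of Fgg holds it.

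The sites whose levels were most like the summed chains were sought among 118 sites outside the cluster with at least 1000 CPM in both liver libraries. Likeness was Pearson's r of log2(CPM + 0.5) over the 14 libraries, given as a description. The 5 most alike were chromosome 9, 46038546 (+) with r = 0.9965, chromosome 17, 12612249 (+) with 0.9935, chromosome 5, 90905626 (+) with 0.9927, chromosome 1, 162932669 (+) with 0.9915 and chromosome 6, 121839073 (+) with 0.9907. They were the 5 with r above 0.99, and the median over the 118 was 0.823. The first of them had 5081 CPM in knockout liver and 5136 CPM in wild-type liver, 45.6 and 35 CPM in knockout and wild-type kidney, and 11.1 and 1.57 CPM in knockout and wild-type adipose tissue. The third had 35245 CPM in knockout liver and 46026 CPM in wild-type liver, 323 and 245 CPM in knockout and wild-type kidney, and 42.4 and 11 CPM in knockout and wild-type adipose tissue. Like the chains of fibrinogen, all 5 were higher in kidney than in adipose tissue of the same genotype. The 5 were chosen by correlation over the same libraries, so this shared order is no separate result. No gene name is given for these positions, since no annotation of mm9 was used.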

How the data were processed

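Poly(A) sites were profiled by 3P-seq from total RNA. The authors deposited, for each site, an estimated count of tags with no scaling to library size; a few counts are fractions, for which no source is stated. Per the submitters' processing notes, reads were processed with CASAVA 1.7 and Bowtie on mm9. Neither the version of Bowtie nor how reads were grouped is given in the sources used here. Positions may differ by 1 nt from a browser's, since the offset of 1 in the track lines was ignored. Sites on a strand that overlapped or touched were merged over the 14 libraries, and sums were rounded to whole numbers for the fit. The total per library, 2036838 to 6010465 tags, sets the precision; the floor for 0 tags was 3 tags. Genotype was tested in the 12 tissue libraries with edgeR 4.0.16 in R 4.3.3 (filterByExpr, minimum count 10, TMM, terms for tissue and genotype, 5 residual degrees of freedom, common biological coefficient of variation 0.31), with Benjamini-Hochberg adjustment over the 23856 sites tested. Chains were sums over sites from 10 kb upstream to 2 kb downstream of the site with most tags on the strand; sites with at least 10 tags were described where they carried a result, and the 5 most alike sites were taken by correlation. Exact intervals and sign-flip tests used Python 3.11.15 with scipy 1.17.1. Alternatives were total-count scaling, leaving out mitochondrial sites, DESeq2 1.42.0, no filter, merging within 24 nt, no tissue term, a pseudocount of 1 tag, main sites alone and leaving out each tissue pair. A 3 kb downstream limit, ends grouped within 10 nt, the ratios of chains without each tissue pair and total-count intervals within tissues were added after seeing the data. The members and lists were chosen with earlier results of these data known.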

Additional observations from a re-analysis of the deposited data

Results flagged for a closer look

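The difference between knockout and wild type went opposite ways in adipose tissue and liver for all 3 chains; for Fga and Fgb the counting interval of the ratio also lay clear of 1 in both tissues. For Fga the log2 difference was 2.72 in adipose tissue and -0.16 in liver, a gap of 2.88. For Fgb it was 2.93 in adipose tissue and -0.08 in liver, a gap of 3.01. For Fgg it was 0.76 in adipose tissue and -0.32 in liver, with an interval in adipose tissue that held no difference. Each of these rests on 1 library per genotype and tissue, the adipose values on 22 and 4 tags of Fga, 14 and 2 tags of Fgb and 4 and 3 tags of Fgg in knockout and wild type, and the gap itself was not tested. Beside these, 50 of the 61 other liver sites were higher in knockout adipose tissue, and the liver direction of Fgb turned with the scaling, at a ratio of 0.943 with TMM and 1.02 with total tags.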

How the results depend on the processing

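No replicate block could be fitted, since the labels give no replicate numbers and each group has 1 library; the comparisons of genotype were instead paired by tissue, through the tissue term and the differences within tissues. No fibrinogen site was called under any of the 12 alternatives to the genotype fit, with 4 (without liver) to 72 of them tested (no filter), but the fitted directions at the main sites depended on them. Without a tissue term the log2 differences were -0.16 for Fga, -0.08 for Fgb and -0.35 for Fgg. Leaving out 1 tissue pair at a time gave -0.18 to 0.68 for Fga, 0.0 to 0.79 for Fgb and 0.0 to 0.4 for Fgg, lowest without the adipose pair and highest without the liver pair. Over all sites, the count higher in knockout was 66, against 135 with total-count scaling, 36 with DESeq2, 1 without a tissue term and 9 to 104 with a tissue pair left out (9 without kidney, 104 without lung, 38 without heart). The count lower in knockout was 16, against 25 with DESeq2, 0 without a tissue term and 4 to 42 with a tissue pair left out (4 without kidney, 42 without adipose tissue, 8 without heart, 9 without muscle). In the sign-flip tests the Fga mean of -0.17 became 0.01 with 1 tag added and 0.02 with total-count scaling, and ran between -0.74 and 0.22 with a tissue pair left out. Those of Fgb and Fgg ran between -0.08 and 0.92 and between 0.11 and 0.62. The Fgg to Fgb ratio became -0.07 with 1 tag added and ran between -0.46 and 0.46, and the Fga to Fgb ratio ran between -0.7 and -0.07. Total-count scaling gave 9501 and 9883 CPM of Fga, 10454 and 10284 CPM of Fgb, and 5865 and 6776 CPM of Fgg in knockout and wild-type liver. Counting sites up to 3 kb downstream gave 11317 and 12078 CPM of Fgb, and the main site alone 4904 and 6272 CPM of Fgg. With ends grouped within 10 nt, the share outside the main end was 2.98% and 3.05% for Fga and 7.11% and 8.36% for Fgb. The causes were not tested. Of 133 comparisons of a value with an alternative, 96 kept direction and call or moved within their spread, 26 moved and 11 reversed. Outside liver and kidney, 40 tags or fewer per library limit every statement on single ends and chain shares.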
